A study of Mus musculus with 2 samples.

Results

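A set of 10 genes of cholesterol transport was followed through the cell classes of the mouse retina: Apoe, Apoc1 and Apoc2, Abca1 and Abcg1, Nr1h2 and Nr1h3, Npc1 and Npc2, and Lrp1. They are 10 of 31053 genes listed in the files, and all 10 were found by symbol. The set was chosen by the summed levels of Apoe in Müller glia and microglia of these same libraries, seen in earlier work, so those levels are a description. Mice received 20 mg/kg sodium iodate (NaIO3), an oxidant toxic to the pigment epithelium behind the retina, into a vein, and control mice received phosphate-buffered saline (PBS). Retinas were taken 7 days later, and the names of the files carry the strain label C57, while age and sex are not given in the labels. Each group was 1 droplet single-cell library made from retinas of 6 mice pooled together. With 1 library per group nothing below has a replicate check, no test between groups was possible, and every interval is a 95% interval that covers counting error only. Retinas were dissociated with papain, and the protocol mentions magnetic CD11b beads, which bind myeloid cells, for NaIO3 pellets only, while the label CD11b+ microglia stands on both libraries.

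In the NaIO3 library there were 9746 barcodes with 75981079 UMIs (unique molecular identifiers, 1 for each captured transcript), and 9441 cells were kept with a median of 2951 UMIs. The PBS library held 6242 barcodes and 26605477 UMIs, of which 5573 cells were kept with a median of 2486 UMIs, and 24 barcodes occurred in both libraries. A cell was put in a class where at least 3 different markers of that class had a UMI and made up at least 0.3% of its UMIs. This gave 4573 NaIO3 and 4814 PBS rods, 253 and 223 cones, 596 and 59 bipolar cells, 568 and 51 Müller glia, 1696 and 16 microglia, and 112 and 2 endothelial cells. Levels are UMIs summed over the cells of a class and scaled to the class total (CPM). The class is a range of marker counts: exactly 3 markers were found in 17 NaIO3 and 10 PBS Müller glia and in 133 NaIO3 and 0 PBS microglia. All 10 Müller markers stood at 50 CPM or more in the Müller glia of both libraries. Of 12 microglia markers 9 did so in NaIO3 and 12 in PBS microglia. The median share of rod-marker UMIs was 1.28% in NaIO3 and 0.501% in PBS Müller glia, and 0.0575% in NaIO3 and 0.342% in PBS microglia. Summed over the class, as the levels are, rod markers stood higher in PBS. They summed to 15794 CPM in NaIO3 and 22986 CPM in PBS Müller glia, and to 934 CPM in NaIO3 and 17452 CPM in PBS microglia. Cones held 14799 CPM in NaIO3 and 43373 CPM in PBS, where rods held 27425 CPM in NaIO3 and 56382 CPM in PBS. Markers of tissue macrophages summed to 804 CPM in NaIO3 microglia, with 3 of 8 at 50 CPM or more, and all 8 were at 0 in PBS microglia. Monocyte markers summed to 311 CPM (3 of 6 at 50 CPM or more), T and NK cell markers to 312 CPM (2 of 8) and dendritic cell markers to 111 CPM (0 of 8) in NaIO3 microglia, and all were at 0 in PBS microglia. The part of these cell types in the microglial levels below was not tested. NaIO3 Müller glia were deeper, at a median of 23728 UMIs against 3047 in PBS.

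Most cells cannot break down cholesterol and export what they do not need. Apolipoproteins such as APOE accept it on lipoprotein particles, the membrane pumps ABCA1 and ABCG1 load those particles, and the oxysterol receptors LXRα (Nr1h3) and LXRβ (Nr1h2) switch on pump and carrier genes when sterols accumulate. NPC2 and NPC1 hand cholesterol of engulfed lipoproteins out of the lysosome, and LRP1 is a surface receptor that takes up APOE particles. In the retina, photoreceptor outer segments are rich in lipid, and Müller glia are a known source of APOE.

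Apoe and Abca1 are the members on which the levels below turn, and their promoters are shown for that reason. The sequences are the 250 bases before the start site from RefSeq on GRCm38.p6, read on the minus strand, on which both genes lie. A script searched 300 bases (250 before and 50 after the start) on both strands for a direct repeat of half-sites spaced by 4 bases, the layout to which LXR with its partner RXR binds. Capitals in the Abca1 sequence mark the match, which runs on the opposite strand as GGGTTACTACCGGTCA and covers bases 184 to 199, and the Apoe sequence has none.
Abca1, chr4:53159896-53160145: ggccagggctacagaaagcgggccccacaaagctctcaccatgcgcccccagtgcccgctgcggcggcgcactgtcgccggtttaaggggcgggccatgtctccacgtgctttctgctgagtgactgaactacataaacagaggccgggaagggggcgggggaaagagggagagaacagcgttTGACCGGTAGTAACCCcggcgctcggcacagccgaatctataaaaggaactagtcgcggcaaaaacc
Apoe, chr7:19699189-19699438: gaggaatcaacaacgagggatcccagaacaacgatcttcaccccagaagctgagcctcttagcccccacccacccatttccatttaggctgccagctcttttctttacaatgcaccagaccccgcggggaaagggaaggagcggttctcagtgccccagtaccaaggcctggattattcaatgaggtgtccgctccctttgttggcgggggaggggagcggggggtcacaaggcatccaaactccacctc
The motif searched was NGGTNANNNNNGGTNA, and it was found in 236 of 32851 promoters (0.718%). Of the 7 members with a promoter in the table, Abca1 alone held it. The stricter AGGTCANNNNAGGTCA was found in 5 promoters (0.0152%), none of them of a member. The motif was chosen after levels had been seen, and a match is a description of letters, not of binding.

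Apoe (ENSMUSG00000002985, chromosome 7 from 19696109 to 19699188, minus strand, GENCODE M21 on mm10) encodes the main apolipoprotein of neural tissue. In NaIO3 microglia it stood at 15512 CPM, from 329371 UMIs, against 17.5 CPM (0.444 to 97.7) in PBS microglia, where the 16 cells held 1 Apoe UMI. The ratio was 884 (159 to 34933). In Müller glia it stood at 9737 CPM in NaIO3 and 10001 CPM in PBS, a ratio of 0.974 whose interval (0.940 to 1.01) includes 1. Apoe was thus far higher in NaIO3 microglia than in PBS microglia and close to equal between the Müller glia of both libraries. A lower Müller level in NaIO3 did not hold across settings, since the log2 ratio ran from -1.14 to 1.43.

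**Figure D1:**
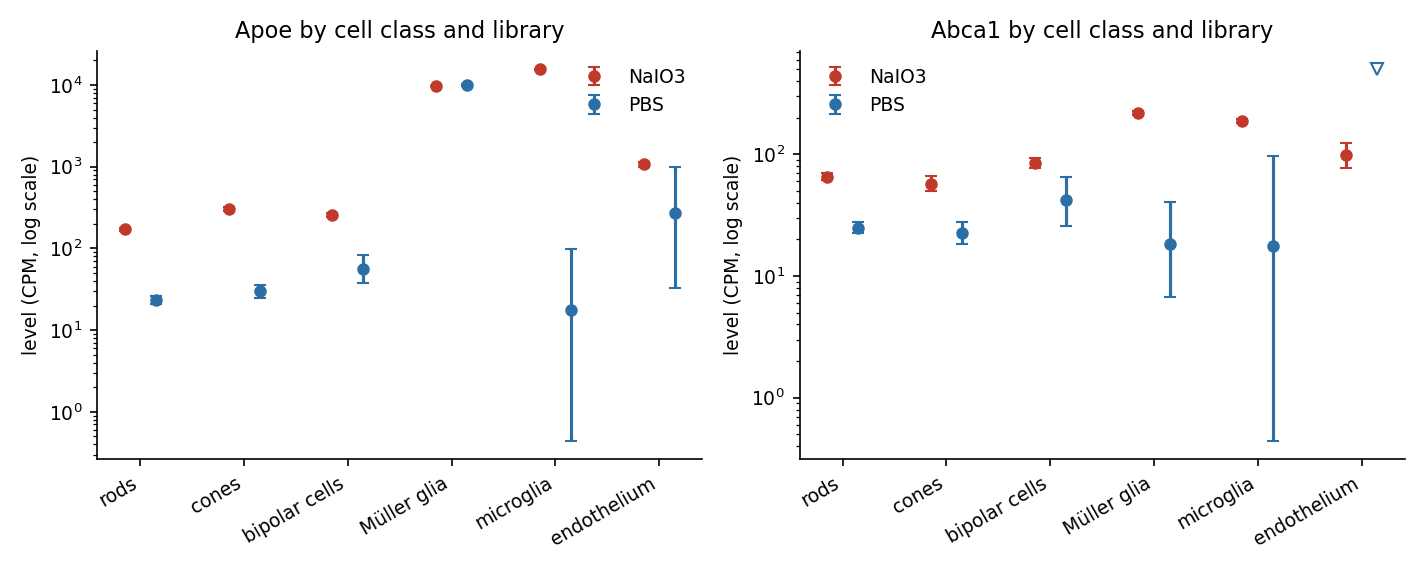
Apoe (left) and Abca1 (right) in CPM on a log axis by cell class, NaIO3 in red left of PBS in blue, with 95% Poisson intervals of counting error and an open triangle at the upper bound of that exact interval for a class with 0 UMIs. Apoe stands at 9737 CPM in NaIO3 and 10001 CPM in PBS Müller glia and differs widely in microglia, while Abca1 is higher in NaIO3 in all 5 classes with more than 2 PBS cells.

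The order of Apoe levels differed between the libraries. In NaIO3 it ran from microglia and Müller glia to endothelium at 1079 CPM (1005 to 1157), cones at 303 CPM (284 to 322), bipolar cells at 254 CPM (240 to 269) and rods at 172 CPM (165 to 180). No neighbouring intervals overlapped there, but the order of the neurons changed with the depth of the cells compared. In NaIO3 cells of 5000 to under 20000 UMIs, bipolar cells at 217 CPM (202 to 234) stood above cones at 147 CPM (131 to 165). Rods were at 93.6 CPM in that band. With every NaIO3 cell thinned to an equal number of UMIs, bipolar cells had 253 CPM, rods 183 CPM and cones 154 CPM. In PBS, Müller glia were followed by endothelium at 271 CPM, on 2 UMIs, then bipolar cells at 56.6 CPM (37.3 to 82.4), cones at 29.8 CPM (24.9 to 35.4), rods at 23.2 CPM (20.8 to 25.8) and microglia. The intervals of endothelium and bipolar cells, of cones and rods, and of rods and microglia overlapped.

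By cells, Apoe had a median of 12765 CPM in the 1696 NaIO3 microglia, with a 10th percentile of 2373 CPM and a 90th of 47622 CPM, and 34 cells were at 0. Of the 16 PBS microglia 15 were at 0. In Müller glia the median was 10337 CPM in NaIO3, with 0 of 568 cells at 0, and 11487 CPM in PBS, with 4 of 51 cells at 0. The Müller medians lay closer together than the spread over cells of either library. With each cell thinned to 1000 UMIs, which left out 316 NaIO3 and 5 PBS microglia, 96.1% of 1380 NaIO3 microglia and 0 of 11 PBS microglia had an Apoe UMI, and by the limit of 3 counts 0 of 11 allows a share of cells with a UMI of up to 27.3%. In Müller glia the thinned shares were 99.4% in NaIO3 and 90.2% in PBS.

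**Figure D2:**
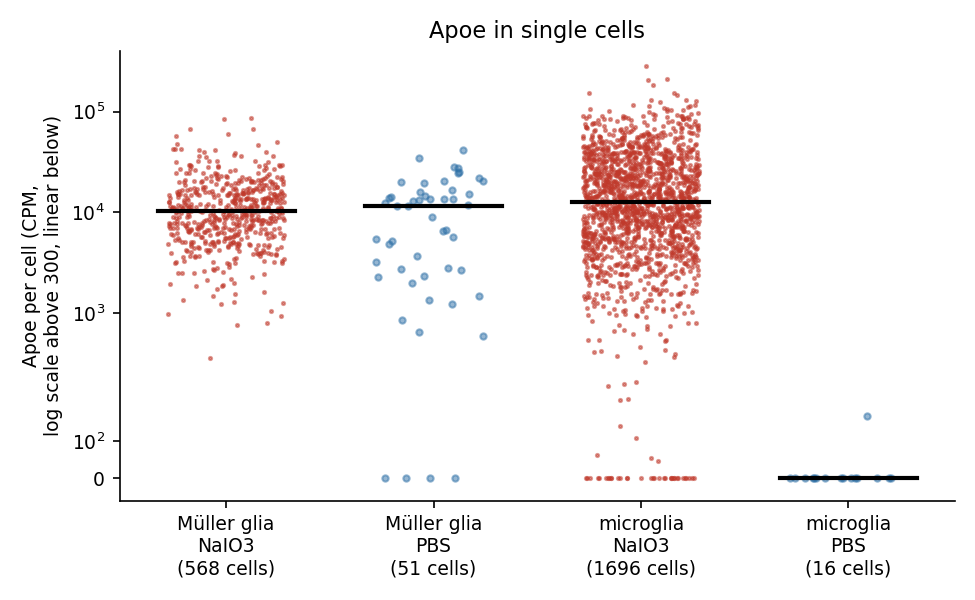
Apoe per cell in CPM, on an axis that is logarithmic above 300 and linear below, in Müller glia and microglia, NaIO3 left of PBS, with a point for each cell and a black line at the median. The Müller clouds overlap around medians of 10337 CPM (NaIO3) and 11487 CPM (PBS), and 15 of the 16 PBS microglia lie at 0.

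One PBS Müller cell carried 95037 of the 324161 UMIs of its class and stood at 863 CPM of Apoe. Without the deepest Müller cell of each library the log2 ratio of Apoe was -0.50. Of the 51 PBS Müller glia 38 lay in clusters led by that class, and with cells of such clusters alone it was -0.64. In cells of 5000 to under 20000 UMIs, where 146 NaIO3 and 17 PBS Müller glia were left, Apoe stood at 15910 CPM in NaIO3 (15731 to 16091) and 16678 CPM in PBS (16065 to 17309). In shallower cells the order was the other way, at 13087 CPM in 31 NaIO3 and 4549 CPM in 18 PBS Müller glia of 1500 to under 5000 UMIs. The Müller direction thus changed with the depth of the cells compared.

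Of all Apoe UMIs in the NaIO3 library, 60.6% lay in microglia and 26.9% in Müller glia, which were 18.0% and 6.02% of kept cells. In PBS, 68.0% lay in Müller glia, which were 0.915% of kept cells, 7.09% in rods and 0.0210% in microglia. A further 17.2% of the PBS UMIs lay in 12 cells that met the markers of several classes and were left out of them. The bead selection can set how many microglia a library holds, so these shares describe the libraries and not the tissue.

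Rods, cones and bipolar cells also had more Apoe in NaIO3, by 7.42-fold in rods (6.62 to 8.34), 10.2-fold in cones (8.46 to 12.3) and 4.49-fold in bipolar cells (3.07 to 6.84). The cone log2 ratio of 3.35 was 1.63 with cells thinned to 1000 UMIs, 1.87 without cells rich in rod RNA, 2.05 in cells of clusters led by cones and 2.07 in cells of 1000 to 5000 UMIs. The bipolar log2 ratio of 2.17 was 0.64 in cells of 1000 to 5000 UMIs, with 4 PBS cells, and 1.504 with no mitochondrial limit. These levels moved with cell depth. In NaIO3 rods Apoe was 458 CPM in cells of 500 to under 1500 UMIs, 173 CPM below 5000, 93.6 CPM below 20000 and 71.0 CPM in the 9 deepest cells. In PBS rods the same bands held 55.8, 24.7, 12.1 and 9.66 CPM. Genes known from other classes also had UMIs in rods. Ctss, a protease gene of microglia, stood at 16.1 CPM in NaIO3 and 0.206 CPM in PBS rods, and Crym, a Müller gene, at 11.8 CPM in NaIO3 and 5.50 CPM in PBS rods. Relative to the class that is its source, Apoe in NaIO3 rods was 1.11% of the microglial and 1.77% of the Müller level, where 3 microglial genes reached 0.375 to 0.716% and 3 Müller genes 0.572 to 1.58%. In NaIO3 cones Apoe was 1.95% of the microglial level, where the microglial genes reached 0.302 to 0.452%. It was 3.11% of the Müller level there, below the 3.19 to 4.24% of the Müller genes. In NaIO3 bipolar cells Apoe was 1.64% of the microglial level (microglial genes 0.415 to 0.936%). It was 2.61% of the Müller level there (Müller genes 1.54 to 2.53%). The part of free RNA in the neuronal Apoe levels was not tested beyond these values. One cone held 18.5% of the Apoe UMIs of NaIO3 cones, and 1 bipolar cell 14.0% of those of NaIO3 bipolar cells.

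Apoc1, a small apolipoprotein that rides on the same particles and lies beside Apoe (chromosome 7 from 19689481 to 19692660), had 59.0% of its NaIO3 UMIs in Müller glia. It stood at 114 CPM in NaIO3 Müller glia and 30.8 CPM in PBS Müller glia, where it rested on 10 UMIs, a ratio of 3.69 (2.0 to 7.70). At 1000 UMIs per cell 0 of 41 PBS Müller glia held Apoc1. Its log2 ratio was then at least 0.74, a bound set by the floor of 3 UMIs. In microglia it had 24.8 CPM in NaIO3 and 0 UMIs in PBS, and the PBS floor of 3 UMIs is 52.6 CPM, so no fold is given. Rods and cones held at most 18 NaIO3 and 2 PBS UMIs each. Apoc2, the cofactor of lipoprotein lipase (chromosome 7 from 19671579 to 19677941), had 27 UMIs in NaIO3 microglia, 1 in NaIO3 Müller glia and 0 in every PBS class. Apoc2 overlaps Gm44805 on the same strand, which had 0 UMIs, so reads that fit both genes may have been lost in counting.

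Of the genes around Apoe on chromosome 7, Tomm40, Clptm1 and Relb could be compared in microglia and did not show its microglial difference. Apoc1 and Apoc2 had 0 UMIs in PBS microglia and could not be compared. Tomm40, a mitochondrial import channel, stood at 67.3 CPM in NaIO3 and 70.2 CPM in PBS microglia, the second on few UMIs. In Müller glia Tomm40 stood at 37.7 CPM in NaIO3 and 64.8 CPM in PBS (ratio 0.581, 0.377 to 0.946). Clptm1 had ratios of 1.36 in microglia (0.465 to 6.61) and 1.31 in Müller glia (0.805 to 2.31). Relb, an NF-κB subunit, stood at 18.7 CPM in NaIO3 and 35.1 CPM in PBS microglia, on 2 PBS UMIs. Nectin2, Bcam and Apoc4 did not reach 20 CPM in Müller glia or microglia of either library.

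Abca1 (chromosome 4 from 53030787 to 53159895, minus strand), the pump that loads cholesterol onto lipid-poor APOE and APOA1, was higher in NaIO3 in every class that could be compared. In Müller glia it stood at 220 CPM in NaIO3 (212 to 227) and 18.5 CPM in PBS (6.79 to 40.3), on 6 PBS UMIs, a ratio of 11.9 (5.45 to 32.4). In microglia it stood at 188 CPM in NaIO3 and 17.5 CPM in PBS, on 1 PBS UMI, a ratio of 10.7 (1.92 to 423) whose log2 value ran from 1.02 to 4.07 over the settings. The glial PBS levels thus rest on few molecules, while the neurons hold more. Rods had 65.8 CPM from 856 UMIs in NaIO3 and 24.9 CPM from 362 UMIs in PBS, a ratio of 2.64 (2.34 to 3.0). Cones had 57.4 CPM in NaIO3 and 22.7 CPM in PBS, a ratio of 2.53 (1.98 to 3.26). Bipolar cells had 84.9 CPM in NaIO3 and 42.0 CPM in PBS, a ratio of 2.02 (1.29 to 3.35). The 112 NaIO3 endothelial cells stood at 99.1 CPM and the 2 PBS cells held 0 UMIs, for which the floor of 3 UMIs is 407 CPM.

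By depth, Abca1 in NaIO3 rods was 67.1, 64.5, 67.6 and 75.5 CPM from the shallowest to the deepest band, and in PBS rods 31.5, 22.9, 26.8 and 32.2 CPM. NaIO3 rods held 35.0% of the microglial and 29.95% of the Müller level of Abca1, and the part of free RNA in its rod level was not tested beyond these values. In Müller glia of 5000 to under 20000 UMIs it stood at 248 CPM in NaIO3 (226 to 272) and 23.9 CPM in PBS (6.52 to 61.2). In cones of that band Abca1 stood at 61.1 CPM in NaIO3 (50.7 to 72.9) and 10.9 CPM in PBS (6.35 to 17.5). In cones of 20000 UMIs or more it was 52.8 CPM in NaIO3 and 29.4 CPM in PBS. Those 58 PBS cones held 81 of the 99 Abca1 UMIs of PBS cones, so the cone ratio moved with depth. The median mitochondrial share also differed between the rods, at 1.98% of UMIs in NaIO3 and 6.94% in PBS. Among cells of at most 5% mitochondrial UMIs the log2 ratio of Abca1 was 1.07 in rods, 0.59 in cones, with 7 PBS cells, and -0.16 in bipolar cells, with 2 PBS cells.

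**Figure D3:**
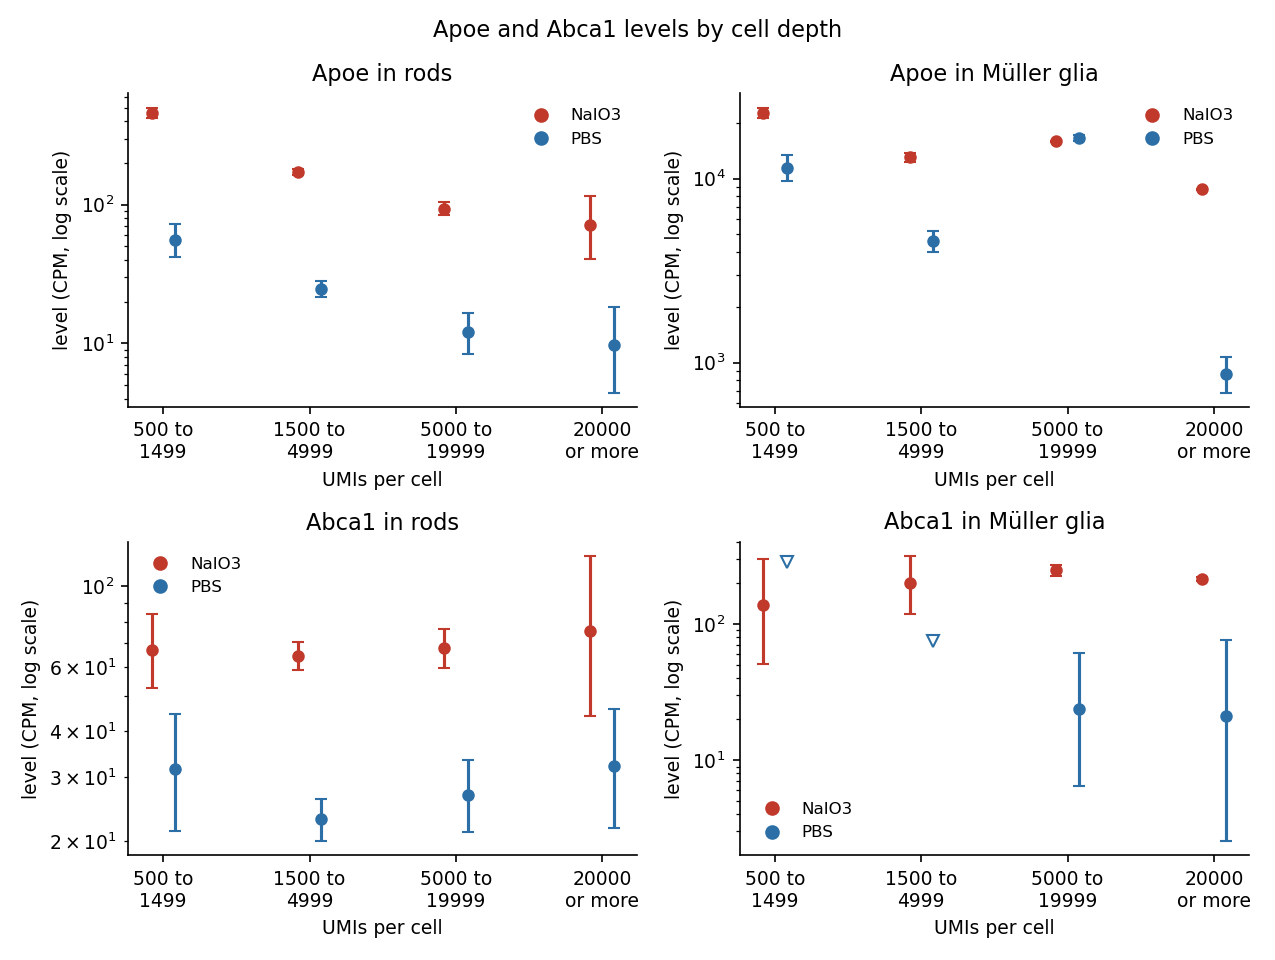
Apoe (top) and Abca1 (bottom) in CPM on log axes against UMIs per cell, for rods (left) and Müller glia (right), NaIO3 in red left of PBS in blue, with 95% Poisson intervals and open triangles for the upper limit of a band with 0 UMIs. In NaIO3 rods Apoe is 458 CPM in the shallowest and 71.0 CPM in the deepest cells, while Abca1 stays between 64.5 and 75.5 CPM.

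Abcg1 (chromosome 17 from 31057675 to 31117988, plus strand), the pump that hands cholesterol to mature particles, differed less. It stood at 93.2 CPM in NaIO3 and 84.5 CPM in PBS rods, a ratio of 1.10 (1.02 to 1.19), and its log2 ratio turned to -0.18 with TMM scaling and -0.15 with median-of-ratios scaling. The ratio was 1.28 in cones (1.12 to 1.47), 1.84 in bipolar cells (1.20 to 2.96) and 1.15 in Müller glia (0.774 to 1.78). Microglia had 92.1 CPM in NaIO3 and 17.5 CPM in PBS, a ratio of 5.25 that rests on 1 PBS UMI and whose interval includes 1 (0.942 to 208). Within the NaIO3 library Abcg1 lay between 84.7 and 124 CPM in all 5 of these classes, so it was not a glial gene here.

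Nr1h2 (chromosome 7 from 44549616 to 44553951, minus strand), which encodes LXRβ, was lower in NaIO3 in all 5 classes. Rods had 29.2 CPM in NaIO3 and 55.7 CPM in PBS, a ratio of 0.524 (0.463 to 0.593). The ratio was 0.567 in cones (0.435 to 0.734), 0.552 in bipolar cells (0.352 to 0.904) and 0.579 in Müller glia (0.367 to 0.969). Microglia had 25.6 CPM in NaIO3 and 70.2 CPM in PBS, a ratio of 0.365 on 4 PBS UMIs (0.142 to 1.35). The direction was the same under every alternative that gave a value. Nr1h3, which encodes LXRα (chromosome 2 from 91184061 to 91202834), was scarce, at 0.430 to 9.07 CPM in the NaIO3 classes, and no class had an interval that left out 1. Nr1h2 was thus lower in the same 5 classes in which Abca1 was higher.

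Npc1 (chromosome 18 from 12189692 to 12236400, minus strand), the lysosomal membrane transporter, differed in rods. It stood at 114 CPM in NaIO3 and 49.2 CPM in PBS rods, a ratio of 2.31 (2.11 to 2.53), and its levels were 116, 106, 126 and 138 CPM over the depth bands in NaIO3 and 55.8, 44.5, 49.9 and 89.1 CPM in PBS. In the other classes the ratio was 1.15 in cones, 0.999 in bipolar cells, 0.974 in Müller glia and 1.07 in microglia, each with an interval that includes 1. The cone value was not stable. On the log2 scale it was -0.06 with TMM and 1.40 in cells of 1000 to 5000 UMIs, with 23 NaIO3 and 14 PBS cones. In cones of 5000 to under 20000 UMIs Npc1 stood at 76.6 CPM in NaIO3 (64.9 to 89.7) and 48.1 CPM in PBS (37.8 to 60.3). In cones of 20000 UMIs or more it was 90.2 CPM in NaIO3 and 86.0 CPM in PBS. Npc2 (chromosome 12 from 84754562 to 84773152, minus strand), its soluble partner, was mainly microglial, with 75.8% of its NaIO3 UMIs there. It stood at 873 CPM in NaIO3 and 526 CPM in PBS microglia, a ratio of 1.66 (1.16 to 2.46) on 30 PBS UMIs, and its log2 value ran from 0.34 to 2.27 over the settings. In rods it was lower, at 31.4 CPM in NaIO3 and 36.8 CPM in PBS (ratio 0.851, 0.746 to 0.970), and in Müller glia it was 140 CPM in NaIO3 and 142 CPM in PBS.

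Lrp1 (chromosome 10 from 127538161 to 127621148, minus strand), the receptor for APOE particles, went in different directions in the summed levels of the 2 glial classes. Its Müller direction was not stable. In microglia it stood at 192 CPM in NaIO3 and 70.2 CPM in PBS, on 4 PBS UMIs, a ratio of 2.74 (1.07 to 10.1) whose log2 value was 0.65 without cells rich in rod RNA. In Müller glia it stood at 140 CPM in NaIO3 and 194 CPM in PBS, a ratio of 0.722 (0.562 to 0.943). At 1000 UMIs per cell its Müller log2 ratio was 1.57, but only 2 of 41 PBS cells then held it. Means over Müller cells were 169 CPM in NaIO3 and 164 CPM in PBS. In Müller glia of 5000 to under 20000 UMIs Lrp1 was 201 CPM in NaIO3 and 311 CPM in PBS. It was higher in NaIO3 at 500 to under 1500 UMIs (300 against 78.0 CPM, on 1 PBS UMI). The same held at 1500 to under 5000 UMIs (189 against 102 CPM, on 5 PBS UMIs) and above 20000 UMIs (131 against 52.6 CPM, in 1 PBS cell). Bipolar cells had 31.0 CPM in NaIO3 and 29.4 CPM in PBS, and rods 1.69 CPM in NaIO3 and 0.825 CPM in PBS. The NaIO3 rod level was 0.879% of the microglial level, above the shares of the 3 microglial genes, and 1.21% of the Müller level, within the range of the 3 Müller genes.

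**Figure D4:**
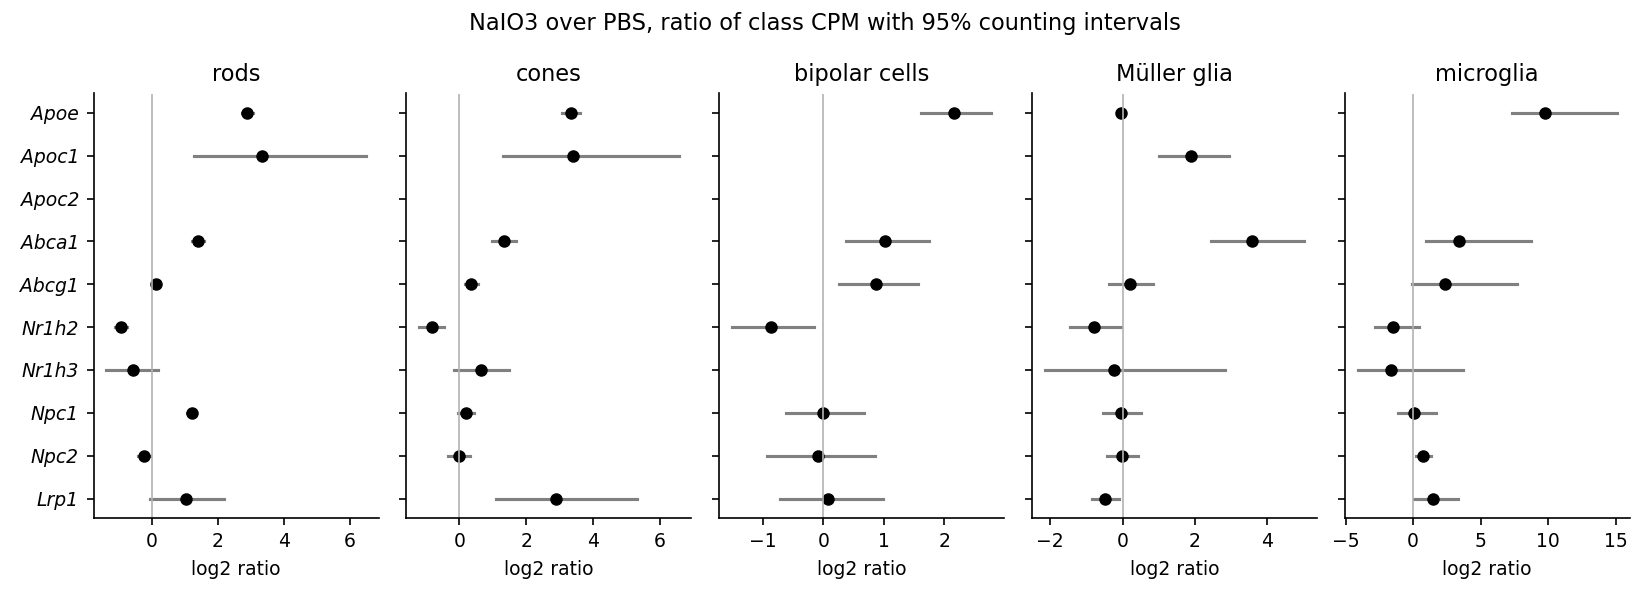
Log2 ratio of class levels, NaIO3 over PBS, for the 10 genes in 5 cell classes, with points for the ratio and bars for 95% counting intervals, each panel on its own axis and genes without a usable fold left blank. Abca1 lies right of 0 and Nr1h2 left of 0 in all 5 panels.

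Counted by class, 5 of the 10 members were at least 2-fold higher in NaIO3 rods and 0 at least 2-fold lower, and 6, 6, 7, 8 and 8 members in rods, cones, bipolar cells, Müller glia and microglia passed the level filter of 20 CPM in either library and 20 UMIs in all. Over all genes past that filter in rods 10.5% were higher and 3.13% lower by that fold. In cones 4 members were higher and 0 lower (8.48% and 2.32% of all genes), and in bipolar cells 2 were higher and 0 lower (10.7% and 6.87%). In Müller glia 2 were higher, Apoc1 and Abca1, and 0 lower (9.98% and 9.36%). In microglia 4 were higher, Apoe, Abca1, Abcg1 and Lrp1, and 2 lower, Nr1h2 and Nr1h3 (12.9% and 29.7%). The intervals of Abcg1, Nr1h2 and Nr1h3 in microglia include 1, as does that of Lrp1, counted as higher, in rods. Among members past the filter, 3 of 6 were higher in rods, 2 of 6 in cones, 2 of 7 in bipolar cells and 2 of 8 in Müller glia, and 4 of 8 were higher and 1 lower in microglia. The members were chosen with this contrast known, so nothing is read from these counts.

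The wider pathway was counted from 6 gene lists at 1.5-fold. In Müller glia 21.2% of all genes were higher and 20.5% lower by 1.5-fold, and in microglia 22% were higher and 39.2% lower. The lists share members with one another and with the 10 genes. Of lysosomal and intracellular cholesterol transport genes in Müller glia, 3 of 13 past the filter were higher and 2 lower (median log2 0.20, against 0.01 for all genes). The higher ones included Lamp2, a lysosomal membrane protein, at 284 CPM in NaIO3 and 108 CPM in PBS (ratio 2.63, 1.89 to 3.79), and Scarb2 (2.01, 1.29 to 3.29). In microglia 6 of 15 were higher and 1 lower (median 0.18, against -0.35), among them Lipa, the lysosomal lipase that frees cholesterol from its esters (3.15, 1.08 to 15.3), and Soat1, which esterifies it for storage (2.68, 1.04 to 9.83). Ch25h, which makes an oxysterol that activates LXR, had 95.9 CPM in NaIO3 and 0 UMIs in PBS microglia, where the floor of 3 UMIs is 52.6 CPM.

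Of lipoprotein receptors in microglia 4 of 8 were higher and 4 lower (median log2 -0.62). The lower ones included Vldlr, a receptor for APOE-bearing particles, at 12.1 CPM in NaIO3 and 70.2 CPM in PBS (ratio 0.172, 0.0663 to 0.636), on 4 PBS UMIs. Rods held Vldlr at 345 CPM in NaIO3 and 287 CPM in PBS. Rod markers summed to 934 CPM in NaIO3 and 17452 CPM in PBS microglia. The part of rod RNA in the microglial Vldlr levels was not tested. Sort1, a sorting receptor, had a ratio of 0.175 (0.0588 to 0.854), on 3 PBS UMIs. In Müller glia 1 of 8 was higher, Vldlr (1.54, 1.15 to 2.11), and 2 lower, among them Lrpap1, the chaperone of LRP1 (0.543, 0.421 to 0.711). Of ABC exporters in Müller glia 2 of 7 were higher, Abca1 and Abcg4, and 1 lower, Abca8b, at 72.8 CPM in NaIO3 and 318 CPM in PBS (0.229, 0.187 to 0.283). The 2 measured exporters in microglia, Abca1 and Abcg1, were both higher.

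Of lipoprotein genes in Müller glia, Clu (clusterin, an apolipoprotein of neural tissue) stood at 6736 CPM in NaIO3 and 2850 CPM in PBS (ratio 2.36, 2.21 to 2.52), with 2 of 4 higher and 1 lower. In microglia 2 of 5 were higher, Apoe and Lpl, a lipase of lipoproteins, the second on 2 PBS UMIs. Of LXR, RXR and target genes in Müller glia 3 of 13 were higher and 1 lower (median log2 -0.04), with Mylip, an LXR target that encodes a ubiquitin ligase, at 2.28-fold (1.10 to 5.69). In microglia 4 of 14 were higher and 4 lower, with Rxra, the partner of LXR, at 13.8 CPM in NaIO3 and 105 CPM in PBS (ratio 0.131, 0.0595 to 0.360). Of 2 measured neighbours of Apoe in Müller glia 0 were higher and 1 was lower, and of 3 in microglia 0 were higher and 1 was lower.

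Within the NaIO3 library, Apoe levels were compared between cells with at least 2 markers of a state and cells with none, each thinned to 1000 UMIs. Cycling microglia (648 cells, with genes such as Mki67 and Top2a) had 14807 CPM of Apoe (14512 to 15106), against 28977 CPM (28416 to 29547) in the 350 cells without these markers. The cycling cells were deeper before thinning, at a median of 6973.5 against 3684 UMIs. Among cells of 5000 to under 20000 UMIs the difference was smaller, at 19809 CPM in 115 cells with and 26457 CPM in 105 cells without. Microglia with disease-associated markers such as Spp1 and Gpnmb had 21915 CPM of Apoe against 18576 CPM without, and those with interferon-response markers 22540 against 19819 CPM. Both were deeper before thinning, at medians of 9407 against 3553 and 9419.5 against 4307 UMIs. Among cells of 5000 to under 20000 UMIs, Apoe was 24950 CPM with and 20725 CPM without disease-associated markers. In that band it was 27600 CPM with and 22344 CPM without interferon-response markers. In the 44 microglia with homeostatic markers such as P2ry12 and Tmem119, Apoe was 22182 CPM, against 19941 CPM in 1017 cells without. These NaIO3 cells held homeostatic markers and Apoe together, while the 16 PBS microglia held 1 Apoe UMI. Their Abca1 level was 409 CPM (242 to 647), against 153 CPM (130 to 179) in those without, and their median before thinning was 9045 against 4495 UMIs. Among cells of 5000 to under 20000 UMIs, 15 with and 230 without, the intervals of both genes overlapped. Apoe was 21205 to 26191 CPM with and 22221 to 23461 CPM without. Abca1 was 147 to 871 CPM with and 158 to 282 CPM without.

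Müller glia with gliosis markers such as Gfap had 13071 CPM of Apoe (12709 to 13441) in 378 cells, against 6195 CPM (5457 to 7006) in 41 cells without. Their Abca1 levels, 220 CPM with (175 to 272) and 122 CPM without (39.6 to 285), had overlapping intervals. Cells without gliosis markers were the deeper ones here, at a median of 31768 UMIs against 24382.5. In cells of 5000 to under 20000 UMIs 3 cells without the markers were left.

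**Figure D5:**
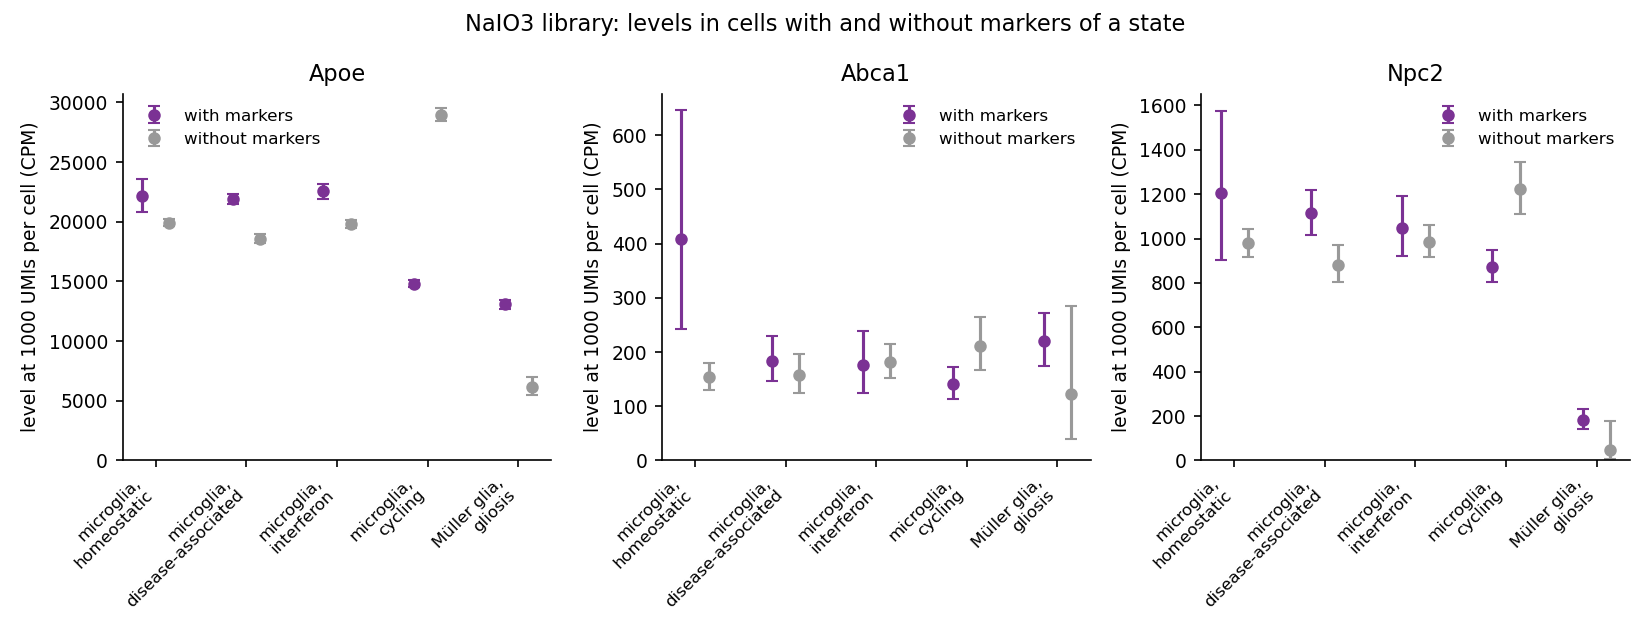
Levels of Apoe, Abca1 and Npc2 in CPM at 1000 UMIs per cell in NaIO3 microglia and Müller glia, for cells with at least 2 markers of a state (purple, left) and with none (grey, right), with 95% Poisson intervals. Apoe is 14807 CPM in cycling microglia and 28977 CPM in those without cycling markers, and 13071 CPM in Müller glia with gliosis markers and 6195 CPM in those without.

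The genes whose levels were most like those of Apoe were Anxa5 (annexin A5, Pearson r 0.912), Tubb4b (a tubulin, 0.907), Prdx1 (a peroxidase, 0.903), Id2 (an inhibitor of transcription factors, 0.900) and Cxcl16 (a membrane-bound chemokine, 0.898). This is over 11 class and library values on the log2(CPM + 50) scale, among 2128 genes that reached 200 CPM in one of them. The points share libraries, depth and free RNA, so the coefficients are a description. Id2 stood at 308 CPM in NaIO3 microglia and 0 UMIs in PBS microglia, and at 68.1 CPM in NaIO3 and 86.4 CPM in PBS Müller glia.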

How the data were processed

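Single-cell RNA was measured in 1 NaIO3 and 1 PBS library. The values are deposited unnormalised UMI counts of each gene in each barcode, made with Cell Ranger 3.0.2 per the file headers, on mm10 per the submitters' processing notes, and the sources used here do not name the annotation. Positions come from GENCODE M21, which holds 30934 of the 31053 gene IDs, and promoters from RefSeq.

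Cells with at least 500 UMIs, 300 genes and at most 15% mitochondrial UMIs were kept, which left out 305 NaIO3 and 669 PBS barcodes. A cell needed 3 markers and 0.3% of its UMIs for a class. For classes other than rods, no second such class could pass or reach 0.5 times as many marker UMIs, and a rod could hold at most 1 marker of any other class. Cells passing for several classes (189 NaIO3, 12 PBS) and for none (1436 NaIO3, 377 PBS) were set aside. Scrublet (expected rate 6%) called 180 NaIO3 cells (1.91%) and 0 of 5573 PBS cells, where it has therefore failed. Calls were kept in the classes, and cells of several classes removed.

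Members, lists, markers and tests were chosen with earlier results of these data known. Of each list up to 3 highest and 3 lowest genes could be named, in Müller glia and microglia, and some that met the rule are not named. The foreign genes in rods, cones and bipolar cells, the motif and the comparison of states by depth were chosen after values were seen. Levels have exact Poisson, ratios exact conditional binomial and shares exact (Clopper-Pearson) intervals. Where PBS had 0 UMIs in a class, 3 UMIs served as the floor. A PBS microglial UMI is worth 17.5 CPM and a PBS rod UMI 0.0687 CPM. Clustering (2000 variable genes, 30 components, 15 neighbours, Leiden resolution 0.8) served as an alternative only. The statistics were tested on simulated data. Python 3.11.15, numpy 2.4.6, scipy 1.17.1, pandas 2.3.3, scanpy 1.11.5, R 4.3.3 and edgeR 4.0.16 (TMM factors) were used.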

Additional observations from a re-analysis of the deposited data

Results flagged for a closer look

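Npc2 went in opposite directions in microglia and rods: its log2 ratio of NaIO3 over PBS was 0.73 in microglia and -0.23 in rods, 0.964 apart, each with a counting interval on its own side of 0. Lrp1 did so in cones and Müller glia, at 2.90 in cones and -0.47 in Müller glia, 3.37 apart. The cone value rests on 17 NaIO3 and 3 PBS UMIs. In NaIO3 cones Lrp1 was 3.66% of the Müller level, within the 3.19 to 4.24% of the 3 Müller genes. It was 2.67% of the microglial level there, above the 0.302 to 0.452% of the 3 microglial genes. The part of free RNA in the cone value was not tested. The Müller value was 1.57 with cells thinned to 1000 UMIs, where 2 of 41 PBS cells held Lrp1. Over the settings the Müller value ran from -1.19 to 1.57, so its direction did not hold. Neither difference was tested, since each group is 1 library.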

How the results depend on the processing

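No paired analysis was possible because each group has 1 library. All values here are log2 ratios of NaIO3 over PBS unless given as percent. Apoe in Müller glia, -0.04 as reported, was -1.14 at a mitochondrial limit of 5%, -0.64 with cells of clusters led by the class, -0.50 without the deepest cell, -0.35 at a marker share of 0.15%, -0.33 at 0.6%, -0.14 at 4 markers, -0.10 without cells rich in rod RNA and -0.10 with mitochondrial UMIs left out of the total. It was 0.013 at 2 markers, 0.016 with no mitochondrial limit, 0.015 thinned to 1000 UMIs, 0.020 without the cell of most Apoe UMIs, 0.035 with median-of-ratios scaling, 0.047 with TMM, 0.20 as a mean of cells and 1.43 in cells of 1000 to 5000 UMIs. Apoe in microglia (9.79) was 7.24 at 2 markers, at least 6.22 thinned and 5.88 with no mitochondrial limit, higher in NaIO3 under all 18 settings. The thinned value is a bound set by the floor of 3 UMIs, since 0 of 11 PBS microglia then held Apoe. Abca1 in rods (1.40) was 1.07 at the 5% limit, 1.08 with TMM and 1.11 with median-of-ratios. Abca1 in cones (1.34) was 0.59 at the 5% limit, 0.85 thinned, 1.94 as a mean of cells and 2.17 without cells rich in rod RNA. Abca1 in bipolar cells (1.02) was 0.30 in cells of 1000 to 5000 UMIs and reversed to -0.16 at the 5% limit, where 2 PBS cells were left. Abca1 in Müller glia (3.57) was 1.83 in cells of 1000 to 5000 UMIs. Those cells, the total without mitochondrial UMIs and the deepest cell were alternatives chosen after seeing the data.

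TMM moved all log2 ratios by -0.32 in rods, -0.26 in cones and 0.65 in microglia. The share of genes at least 2-fold higher and lower was then 4.96% and 7.06% in rods, 4.71% and 4.57% in cones and 26.3% and 17.1% in microglia. With no level minimum it was 16.3% and 5.23% in rods, 12.02% and 3.60% in cones and 7.68% and 23.7% in microglia. For Apoe in Müller glia and microglia and Abca1 in 5 classes, 95 of 124 values stayed within the counting interval. A further 28 moved past it and 1 reversed, and Apoe in Müller glia moved past it in 16 of 18 settings. Over the other member values 534 of 598 stayed within their counting interval and 64 moved past it. Such intervals are wide where PBS UMIs are few, as in microglia, so staying within them shows little there. The PBS levels of microglia, Müller glia and endothelium rest on 16, 51 and 2 cells. The causes of these shifts were not tested.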
